A study of Mus musculus with 4 samples.

Results

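The genes described here are 10 members of the BCL2 family: the survival genes Bcl2, Bcl2l1, Bcl2l2, Mcl1, Bcl2a1a, Bcl2a1b and Bcl2a1d, and the pore-forming effectors Bax, Bak1 and Bok. They were taken by symbol from tables of 23700 rows, and each of the 10 stood on 1 row. RNA came from splenic helper T cells (CD4 T cells) of C57BL/6 mice aged 43 weeks, in 2 libraries labelled wild type (WT 1 and WT 2) and 2 labelled RIPK1-KO (KO 1 and KO 2), the latter from mice lacking RIPK1 in T cells only. All 4 titles also carry the word Ctrl; what it stands for, which promoter drives the deletion and how many mice a library holds are not stated in the labels or design text. Values are FPKM, fragments scaled to the length of the transcript and to all mapped fragments of a library. Paired values of a group are given for replicate 1 and then replicate 2.

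BCL2 family proteins decide whether the outer mitochondrial membrane is opened during intrinsic apoptosis. The survival proteins bind and restrain BAX and BAK, and BH3-only proteins such as BIM and NOXA release that restraint, after which cytochrome c leaks out and the apoptosome activates caspases. In T cells BCL2 is kept up by IL-7 and related cytokines, MCL1 is a short-lived protein needed at most stages of T cell life, and BCL-XL (from Bcl2l1) and A1 (from the Bcl2a1 genes) are known as genes induced when T cells are activated.

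The Bcl2a1 copies must be read with their sequences in view, because mouse A1 is encoded by near-identical genes and a short read often fits more than 1 of them. Their coding sequences are 516 bases long and differ at 12 positions in all, and the longest stretch shared by the 3 copies runs over 217 bases. The first 120 coding bases, from the transcripts of a GENCODE annotation of GRCm38, hold 7 of those positions, which is the most of any window of that length; capitals mark the positions at which the copies do not all agree.
Bcl2a1a: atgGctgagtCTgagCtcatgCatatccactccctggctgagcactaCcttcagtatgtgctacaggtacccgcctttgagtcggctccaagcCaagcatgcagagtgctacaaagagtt
Bcl2a1b: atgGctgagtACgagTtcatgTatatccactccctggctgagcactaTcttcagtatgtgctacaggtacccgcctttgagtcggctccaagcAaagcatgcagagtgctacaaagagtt
Bcl2a1d: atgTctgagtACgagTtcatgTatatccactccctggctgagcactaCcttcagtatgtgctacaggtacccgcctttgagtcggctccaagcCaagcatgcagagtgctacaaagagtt

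Coding identity between pairs ran from 97.9% (Bcl2a1a with Bcl2a1b) to 98.8% (Bcl2a1b with Bcl2a1d). Of all windows of 50 bases in a transcript, 31.0% of Bcl2a1a, 42.4% of Bcl2a1b and 20.5% of Bcl2a1d occur in no other A1 copy, and with 75 bases the shares are 44.8%, 56.5% and 32.4%. No source used here gives the read length or the handling of reads that fit several copies, so how the total was split among the 3 rows is uncertain, and the sum of the rows is given beside them.

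Several properties of the 4 libraries bear on every value. The steps of the lowest FPKM values put the depth at about 17600000 fragments in the shallowest library (KO 1) and 22100000 in the deepest (WT 2). The values of Ripk1, which the study targeted, did not fall with the KO label, and it measured 10.4 and 9.54 FPKM in KO beside 5.61 and 5.60 FPKM in WT (limma adjusted p = 0.0262; 0.18 after trimmed-mean scaling). Which exons were deleted is not known here, and a single value for all exons cannot show whether some of them are gone. KO therefore means the libraries so labelled in everything that follows. Of 11074 rows tested with limma, 25.6% were called higher and 1.0% lower (adjusted p under 0.05), and the median gene changed by 0.38 (log2 of FPKM + 1). Trimmed-mean scaling, which sets the bulk of genes level between libraries, left 4.38% higher and 3.12% lower and brought the median gene to 0.03. Without WT 1, 9 rows were higher and 1 lower in limma (3054 and 346 at an unadjusted p under 0.05); in such a fit the lone WT library is assumed to vary like the KO pair. Calls in that fit without WT 1 were thus few among all rows, and no member kept one. The log2 changes of Bak1 (1.37), Bcl2l1 (0.68) and Bcl2l2 (0.66) in it stayed near their values with all libraries (1.39, 0.79 and 0.71). An exact two-sided permutation over 4 libraries cannot reach below p = 0.333, and none is given. Since no label ties the libraries of a group to different mice, the tests see only how far these libraries scatter, which could be technical scatter.

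The clearest change in the family was in Bak1, while its partner Bax did not pass the test. Of the 10 genes, 9 reached at least 1 FPKM in at least 2 libraries and were tested with limma, and 4 were called higher in the libraries labelled KO: Bak1, Bcl2l1, Bcl2l2 and Bcl2a1a. Bcl2l2 passed the filter only through the libraries labelled KO, where it was higher; apart from it the count was 3 of 8, against the 25.6% of all rows called higher. None was called lower (0 at an unadjusted p under 0.05, against 6 higher). The KO values lay wholly above the WT values for 7 of the 10 genes, a pattern seen in 58.5% of all tested rows in that direction. Bak1 alone of the 9 remained called after trimmed-mean scaling, under which 4.38% of all rows were higher. Quantile normalization called 0 of the 9 (3 at an unadjusted p under 0.05, limma), with 1.62% of all rows higher and 0.695% lower. Non-overlap in the lower direction was found in 12.1% of rows and in 0 members.

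**Figure D1:**
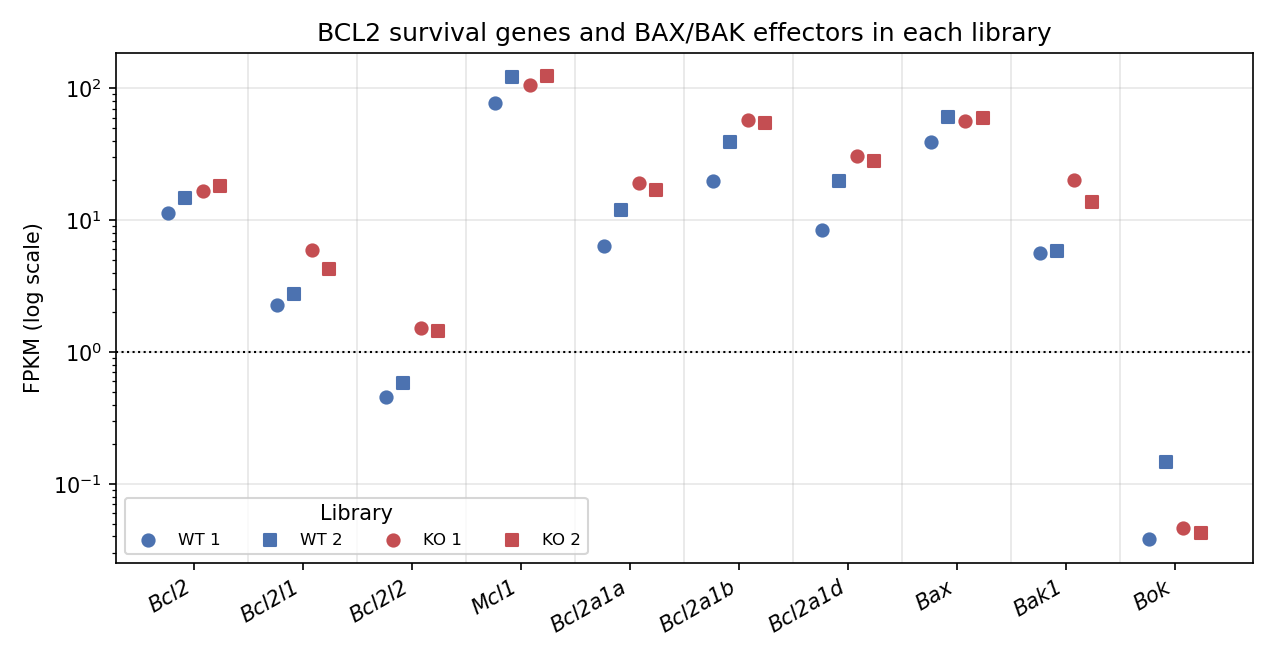
FPKM (log axis) of each of the 10 genes in WT 1, WT 2 (blue) and KO 1, KO 2 (red); circles are replicate 1, squares replicate 2, and the dotted line is 1 FPKM. The red points of Bak1, at 20.1 and 13.8 FPKM, lie above the blue points at 5.67 and 5.82 FPKM, while the points of Bax and Mcl1 overlap and those of Bok, from 0.0379 to 0.147 FPKM, are the lowest.

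The effectors are the proteins that form the pore. Bak1, whose protein sits on the outer mitochondrial membrane already in healthy cells, was at 5.67 and 5.82 FPKM in WT, compared with 20.1 and 13.8 FPKM in KO. The WT libraries were nearly level with each other, and the lower KO library was still well above them. Means were 5.74 ± 0.104 and 16.9 ± 4.47 FPKM (SD, n = 2 and 2), a 2.95-fold rise. On the log2 scale of FPKM + 1 Bak1 rose by 1.39 ± 0.22 (SE, limma adjusted p = 0.0139; 95% interval 0.86 to 1.92), a change larger than that of 96.5% of tested rows. After trimmed-mean scaling its log2 change was 0.998 (limma adjusted p = 0.044). Leaving out WT 1 kept its size at 1.37 and ended the call (limma adjusted p = 0.0944), and quantile normalization gave 0.95 (limma adjusted p = 0.0626). Exons of Ggnbp1 overlap Bak1 on the other strand, and strand use in counting is not stated. Ggnbp1 was at 1.04 and 1.16 FPKM in WT, compared with 0.782 and 0.524 FPKM in KO, and the part of the overlap in the Bak1 values was not tested.

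Bax, whose protein rests in the cytosol and moves to mitochondria on a death signal, was at 39.5 and 60.3 FPKM in WT, compared with 56.7 and 59.4 FPKM in KO. WT 1 was low and the other 3 libraries were alike, so the groups overlapped. The log2 change of 0.24 ± 0.26 (SE) did not pass (limma adjusted p = 0.493), with a 95% interval from -0.37 to 0.86, and after trimmed-mean scaling the value was -0.18 (interval -0.63 to 0.26). A change of Bax as large as the estimate for Bak1 lies outside both intervals. Bok, an effector best known in other tissues, was close to the limit of detection at 0.0379, 0.147, 0.0461 and 0.0423 FPKM in WT 1, WT 2, KO 1 and KO 2. With its longest transcript of 1468 bases these values amount to 1.03, 4.12, 1.03 and 1.03 estimated fragments. At that depth Bok was too low to be tested, and no fold is given.

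Because a ratio of genes in 1 library depends on its scaling only through the pseudocount of 1, the balance between effectors could be read without choosing a scaling. The log2 ratio of Bax to Bak1 (each FPKM + 1) was 2.60 and 3.17 in WT, compared with 1.45 and 2.03 in KO. Both KO libraries were below both WT libraries, with a difference of -1.15 between the means. Bak1 made up 12.5% and 8.78% of the summed effector FPKM in WT, compared with 26.2% and 18.8% in KO. Bax stayed the more abundant effector transcript in every library, at 73.8% or more of that sum.

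**Figure D2:**
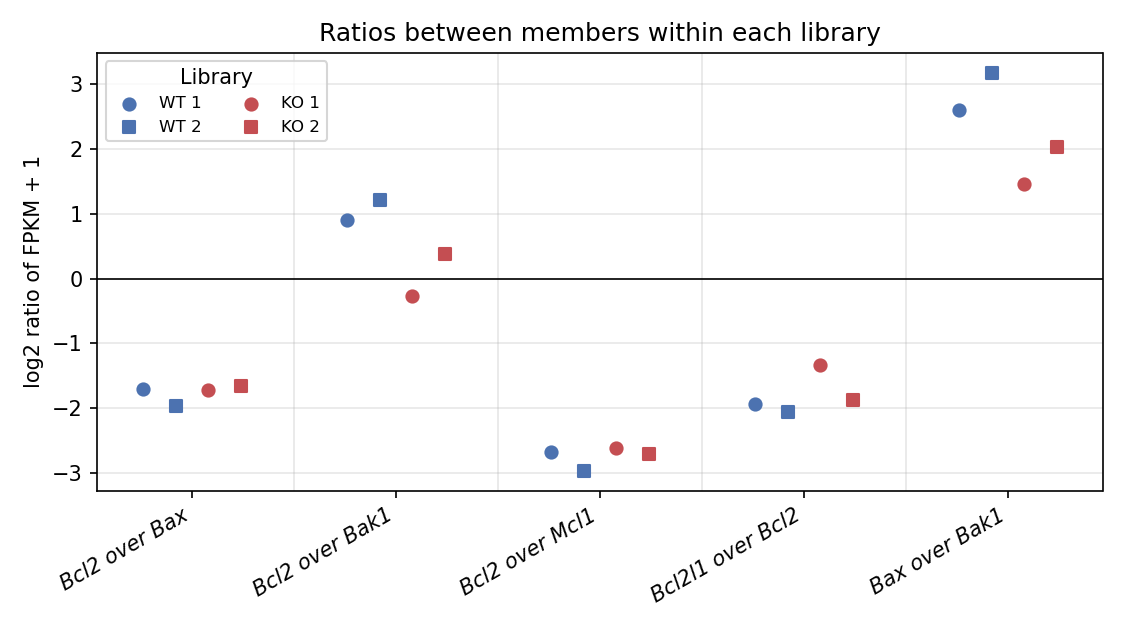
Log2 ratio of FPKM + 1 between pairs of members in each library; blue is WT, red is KO, circles are replicate 1 and squares replicate 2. Bax over Bak1 and Bcl2 over Bak1 are lower in both KO libraries than in both WT libraries, while Bcl2 over Bax and Bcl2 over Mcl1 overlap between the groups.

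The 3 A1 rows had higher values in both KO libraries than in both WT libraries, with folds of means of 1.97 (Bcl2a1a), 1.90 (Bcl2a1b) and 2.09 (Bcl2a1d), and p-values on either side of the threshold. Bcl2a1b, the most abundant copy as counted, was at 19.9 and 39.4 FPKM in WT, compared with 58.0 and 54.8 FPKM in KO. Bcl2a1d was at 8.44 and 19.7 FPKM in WT, compared with 30.9 and 27.95 FPKM in KO, and Bcl2a1a at 6.36 and 12.01 FPKM in WT, compared with 19.3 and 16.9 FPKM in KO. In all 3 rows WT 1 was the lowest library, WT 2 the next, and the KO libraries were the highest and close together. Log2 changes were 0.98 ± 0.32 for Bcl2a1b, 1.12 ± 0.36 for Bcl2a1d and 0.96 ± 0.29 for Bcl2a1a (SE), with limma adjusted p of 0.0644, 0.0598 and 0.0497. These values straddle the threshold of 0.05, so the single call for Bcl2a1a does not set it apart from the other copies.

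Summed over the 3 rows, A1 was at 34.7 and 71.1 FPKM in WT, compared with 108 and 99.7 FPKM in KO, a 1.96-fold difference of means. The WT libraries differed from each other by about as large a factor as WT from KO. The sum, an analysis added after the data were seen, changed on the log2 scale by 1.05 ± 0.35 (SE, limma adjusted p = 0.0638; 95% interval 0.23 to 1.87) and by 0.62 after trimmed-mean scaling (limma adjusted p = 0.162). Without WT 1 the log2 changes of the rows were 0.51 to 0.55, and without WT 2 they were 1.37 to 1.69, with all 3 called (limma adjusted p = 0.0472). The split among the copies was nearly the same in every library: Bcl2a1b held 53.6% to 57.3% of the sum, Bcl2a1d 24.3% to 28.5% and Bcl2a1a 16.9% to 18.3%. Bcl2a1c, a further A1 copy outside the chosen genes, was at 0.145 and 1.31 FPKM in WT, compared with 1.19 and 1.47 FPKM in KO.

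The promoters of all members were searched for short motifs on both strands, in the 300 bases from 250 before to 50 after the annotated start (RefSeq, GRCm38.p6). The 10 genes have 12 such promoters. An ETS-type core, GAGGAAGT, was chosen after the A1 sequences were seen. This core occurs in 3.20% of all 32851 promoters and in those of Bcl2a1a, Bcl2a1b, Bcl2a1d and Bak1, where the 3 A1 copies count as 1 instance. It was not found in those of Bcl2, Bcl2l1 and Bcl2l2, which also had higher values in both KO libraries, nor in those of Mcl1, Bax and Bok. TGANTCA, a loose AP-1 pattern with any base in the middle, occurs in 7.81% of all promoters and in those of the 3 A1 copies. These are copies of 1 sequence and count as 1 instance. The match in all 3 reads TGAATCA, and stricter forms of the AP-1 site were not searched. A kappaB motif (8.46% of promoters) occurs in a promoter of Bcl2l1 and in no other of the 10 genes, and neither TTCNNNGAA, the STAT5 site (8.30%), nor the TATA box TATAAA (13.6%) was found in any of them. The stretches with the matches are shown on the gene's own strand, with the motifs in capitals; the Bak1 match is on the opposite strand. They lie at chr9:88956778-88956837 (+) for Bcl2a1a, chr9:89199087-89199146 (+) for Bcl2a1b, chr9:88731933-88731992 (-) for Bcl2a1d and chr17:27028628-27028687 (-) for Bak1.
Bcl2a1a: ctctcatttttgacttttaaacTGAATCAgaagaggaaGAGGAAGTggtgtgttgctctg
Bcl2a1b: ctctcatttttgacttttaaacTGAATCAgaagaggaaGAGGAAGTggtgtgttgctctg
Bcl2a1d: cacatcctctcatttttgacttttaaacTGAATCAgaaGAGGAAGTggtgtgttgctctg
Bak1: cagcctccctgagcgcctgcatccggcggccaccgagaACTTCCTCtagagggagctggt

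A match describes the letters only, and binding was not measured. The shown stretches of Bcl2a1a and Bcl2a1b are the same letter for letter, and upstream of the start the aligned parts of the 3 copies were 97.5% to 99.5% identical.

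Bcl2l1, which encodes BCL-XL, was a low transcript that rose. It was at 2.26 and 2.77 FPKM in WT, compared with 5.99 and 4.25 FPKM in KO, or about 114 to 249 estimated fragments per library. The KO libraries were above the WT libraries and farther from each other than these were. Bcl2l1 rose by 0.79 ± 0.21 on the log2 scale (SE, limma adjusted p = 0.0353). That is 0.41 more than the median gene, and trimmed-mean scaling gave 0.45 (limma adjusted p = 0.151). The call was lost without WT 1, WT 2 or KO 1 (limma adjusted p = 0.172, 0.0755 and 0.14). A second low survival gene, Bcl2l2 (BCL-W), was at 0.457 and 0.581 FPKM in WT, compared with 1.53 and 1.45 FPKM in KO. Its log2 change was 0.71 ± 0.19 (SE, limma adjusted p = 0.0379; 0.116 after trimmed-mean scaling), and leaving out any 1 library ended its call (limma adjusted p = 0.0693 to 0.148) while its log2 change stayed at 0.66 to 0.77. With a pseudocount of 0.1 in place of 1 that change was 1.37, above those of the A1 rows (1.008 to 1.18).

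Mcl1 and Bcl2 carried most of the remaining survival transcript, and neither passed. Mcl1 was the highest member in every library, at 78.0 and 121 FPKM in WT, compared with 106 and 124 FPKM in KO. WT 1 was again the low library and the other 3 were within a narrow band, so the groups overlapped. Its log2 change was 0.23 ± 0.28 (SE, limma adjusted p = 0.551; 95% interval -0.43 to 0.89), and -0.20 after trimmed-mean scaling. Bcl2, the founding survival gene, was at 11.4 and 14.7 FPKM in WT, compared with 16.5 and 18.2 FPKM in KO. The groups did not overlap, yet its log2 change of 0.39 ± 0.20 (SE, limma adjusted p = 0.184; 95% interval -0.09 to 0.88) lay 0.01 from that of the median gene, and after trimmed-mean scaling it was -0.01. Bcl2 was thus in the middle of all tested rows, at the 50.9th percentile of changes, while Mcl1 was at 38.5 and Bax at 39.5.

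**Figure D3:**
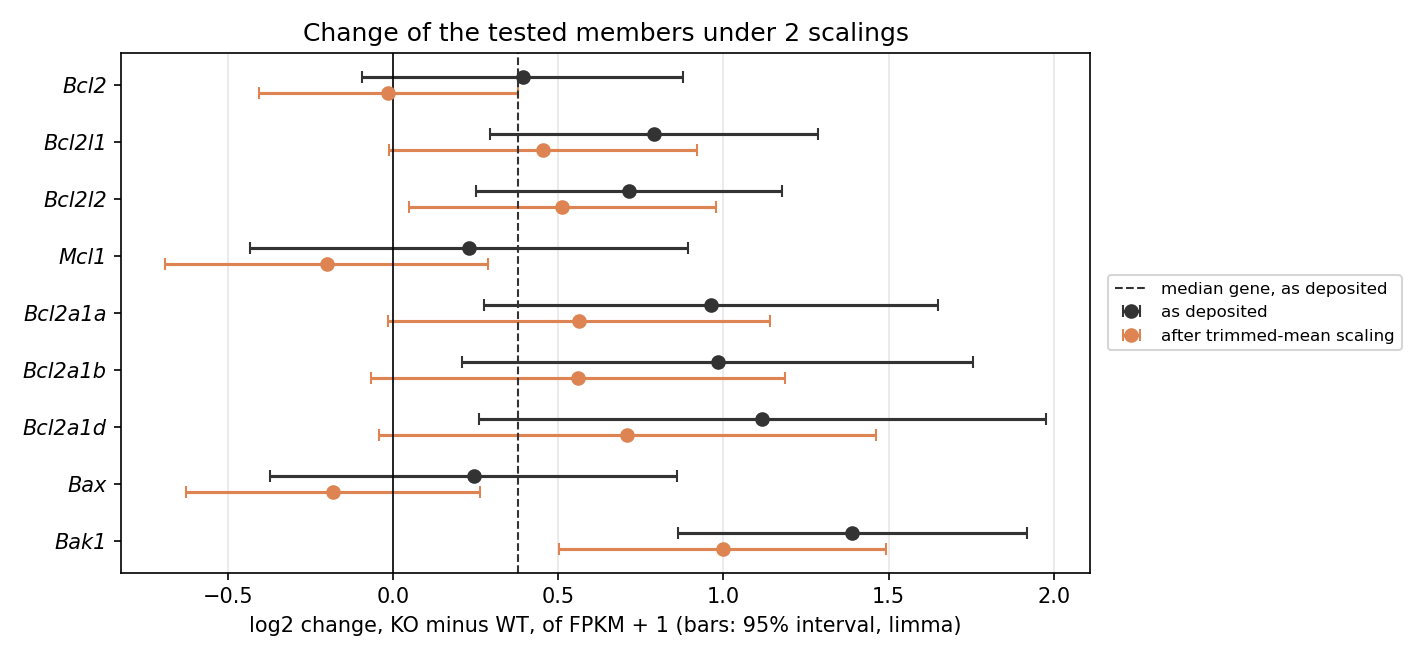
Log2 change of FPKM + 1, KO minus WT, for the 9 tested genes with 95% limma intervals, as deposited (black) and after trimmed-mean scaling (orange); the dashed line is the median gene as deposited, at 0.38. Bak1 has the highest value under both scalings, 1.39 and 0.998, and Bcl2, Mcl1 and Bax lie at or below 0 after trimmed-mean scaling.

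Ratios among these genes placed Bcl2 with Mcl1 and Bax. The log2 ratio of Bcl2 to Bax was -1.70 and -1.96 in WT, compared with -1.72 and -1.65 in KO, and that of Bcl2 to Mcl1 was -2.67 and -2.96 in WT and -2.61 and -2.70 in KO. Neither separated the groups. The log2 ratio of Bcl2 to Bak1 did, with 0.90 and 1.20 in WT above -0.27 and 0.38 in KO. Bcl2l1 over Bcl2 was -1.93 and -2.06 in WT and -1.33 and -1.87 in KO, so that KO 2 lay close to WT 1 and KO 1 stood apart. With no fit across genes these ratios are descriptions and carry no test.

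The make-up of the survival pool differed more than its size relative to the effectors. Mcl1 supplied 61.5% and 57.6% of the summed survival FPKM in WT, compared with 44.4% and 50.01% in KO. Bcl2a1b supplied 15.7% and 18.7% in WT and 24.4% and 22.2% in KO, and Bcl2 between 6.95% and 9.01% in all libraries. The sum of the 7 survival genes over the sum of the 3 effectors was 2.81 and 3.18 in WT, compared with 3.10 and 3.38 in KO, so the groups overlapped. Proteins were not measured, and MCL1 and A1 proteins are known to be short-lived, so shares of transcript are not shares of protein.

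**Figure D4:**
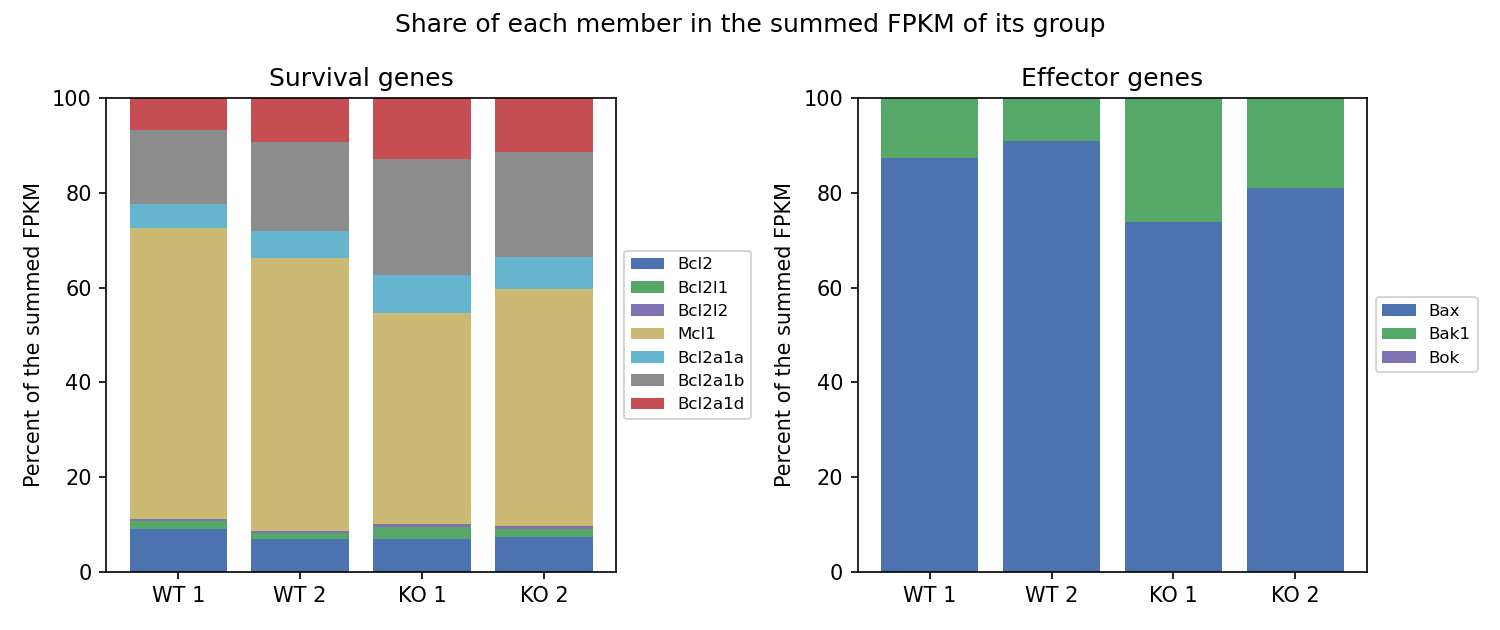
Percent of the summed FPKM of the 7 survival genes (left) and of the 3 effectors (right) that each gene supplied in each library; bars add to 100. The Mcl1 segment is smaller in KO 1 and KO 2 (44.4% and 50.01%) than in WT 1 and WT 2 (61.5% and 57.6%), and the Bak1 segment is larger (26.2% and 18.8% against 12.5% and 8.78%).

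FPKM is scaled to length, so levels can be ordered between genes. In WT the order of mean level ran from Mcl1 (99.6 FPKM) through Bax (49.9), Bcl2a1b (29.6), Bcl2a1d (14.1), Bcl2 (13.1), Bcl2a1a (9.19), Bak1 (5.74), Bcl2l1 (2.51) and Bcl2l2 (0.519) to Bok (0.0923). Bcl2a1d and Bcl2, and Bcl2 and Bcl2a1a, overlapped between their 2 libraries, and other neighbours did not. In KO Bcl2a1b (56.4 FPKM) reached the level of Bax (58.0), and Bak1 (16.9) that of Bcl2 (17.4) and Bcl2a1a (18.1), with ranges that overlapped between Bax and Bcl2a1b, Bcl2a1a and Bcl2, and Bcl2 and Bak1.

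Other genes of the mitochondrial death pathway were given by 6 lists chosen with earlier results of these data known. Of their 49 tested rows 18 were called higher and 0 lower in limma (25 and 0 at an unadjusted p under 0.05), or 36.7% beside the 25.6% of all rows called higher. Trimmed-mean scaling left 5 higher and 0 lower in limma (12 and 2 at an unadjusted p under 0.05). That is 10.2% higher, beside the 4.38% of all rows higher and 3.12% lower. On leaving out any 1 library fewer of the 49 rows were called higher, as was the case among all rows. The fewest calls were left without WT 1, both in the lists and among all rows.

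BH3-only genes encode the sensors that start the pathway, and 2 of 8 tested were called higher, or 25.0% beside the 25.6% of all rows, with a median log2 change of 0.46 and 0 called after trimmed-mean scaling (2 at an unadjusted p under 0.05, limma). Pmaip1 (NOXA, which binds MCL1 and A1) rose from 1.31 and 4.36 FPKM to 8.47 and 16.5 FPKM (limma adjusted p = 0.0266; 0.0717 after trimmed-mean scaling). Bik was at 0 and 0.122 FPKM in WT, compared with 2.22 and 1.05 FPKM in KO (limma adjusted p = 0.0212; 0.0527 after trimmed-mean scaling), and passed the filter only through the KO libraries. Bcl2l11 (BIM, the main BH3-only protein of T cell deletion) was at 2.69 and 3.03 FPKM in WT, compared with 3.40 and 5.03 FPKM in KO and was not called (limma adjusted p = 0.175). That gene and Bbc3 (PUMA) were picked for naming after their values were seen; Bbc3 was at 2.26 and 9.13 FPKM in WT, compared with 7.16 and 14.3 FPKM in KO, groups that overlapped. Among 4 tested genes of the other BCL2 family members 0 were called (1 higher at an unadjusted p under 0.05, limma); Bcl2l12 was at 5.34, 4.602, 5.78 and 2.27 FPKM and Bcl2l13 at 2.66, 2.50, 4.07 and 4.12 FPKM in WT 1, WT 2, KO 1 and KO 2.

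Downstream of the pore, 3 of 12 genes were called higher as deposited, or 25.0% beside the 25.6% of all rows. After trimmed-mean scaling 2 were, or 16.7% beside the 4.38% of all rows. Apaf1, the scaffold of the apoptosome, rose from 2.23 and 2.50 FPKM to 7.44 and 6.36 FPKM (limma adjusted p = 0.0129; 0.0375 after trimmed-mean scaling). Cycs, which encodes cytochrome c, was not called, at 23.6, 25.0, 23.2 and 21.0 FPKM in WT 1, WT 2, KO 1 and KO 2 (limma adjusted p = 0.617). The list's median log2 change was 0.34, near the 0.38 of all rows. Of 5 caspase inhibitors 3 rose as deposited and 0 after trimmed-mean scaling: Birc6 2.13-fold, Birc3 (cIAP2) 2.04-fold and Xiap 2.06-fold (limma adjusted p = 0.0158, 0.0242 and 0.0288, and 0.0728, 0.0677 and 0.16 after trimmed-mean scaling).

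The last lists held regulators of the turnover or handling of BCL2 proteins and the cytokine receptors upstream of them. Of 9 regulators 4 rose as deposited, or 44.4% beside the 25.6% of all rows. After trimmed-mean scaling 1 did, or 11.1% beside the 4.38% of all rows. The 4 were Huwe1, a ubiquitin ligase of MCL1, 2.62-fold, the chaperone Bag6 2.17-fold, Usp9x, which removes ubiquitin from MCL1, 1.81-fold, and Btrc, an F-box protein, 2.15-fold (limma adjusted p = 0.0129, 0.0158, 0.0268 and 0.0355). After trimmed-mean scaling Huwe1 remained called (limma adjusted p = 0.048). Among 11 receptor, JAK and STAT5 genes 6 rose as deposited, or 54.5% beside 25.6% of all rows, with a median log2 change of 0.73. After trimmed-mean scaling 2 did, or 18.2% beside 4.38% of all rows. Il2rb, the receptor chain shared by IL-2 and IL-15, rose from 11.4 and 17.1 FPKM to 69.0 and 51.5 FPKM (limma adjusted p = 0.0127; 0.0179 after trimmed-mean scaling). Jak3, the kinase of the common gamma chain, rose 3.49-fold (limma adjusted p = 0.0129; 0.0227 after trimmed-mean scaling). Il15ra rose 2.78-fold and Stat5a 2.26-fold (limma adjusted p = 0.0139 and 0.0179), and neither passed after trimmed-mean scaling (limma adjusted p = 0.0573 and 0.0562).

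**Figure D5:**
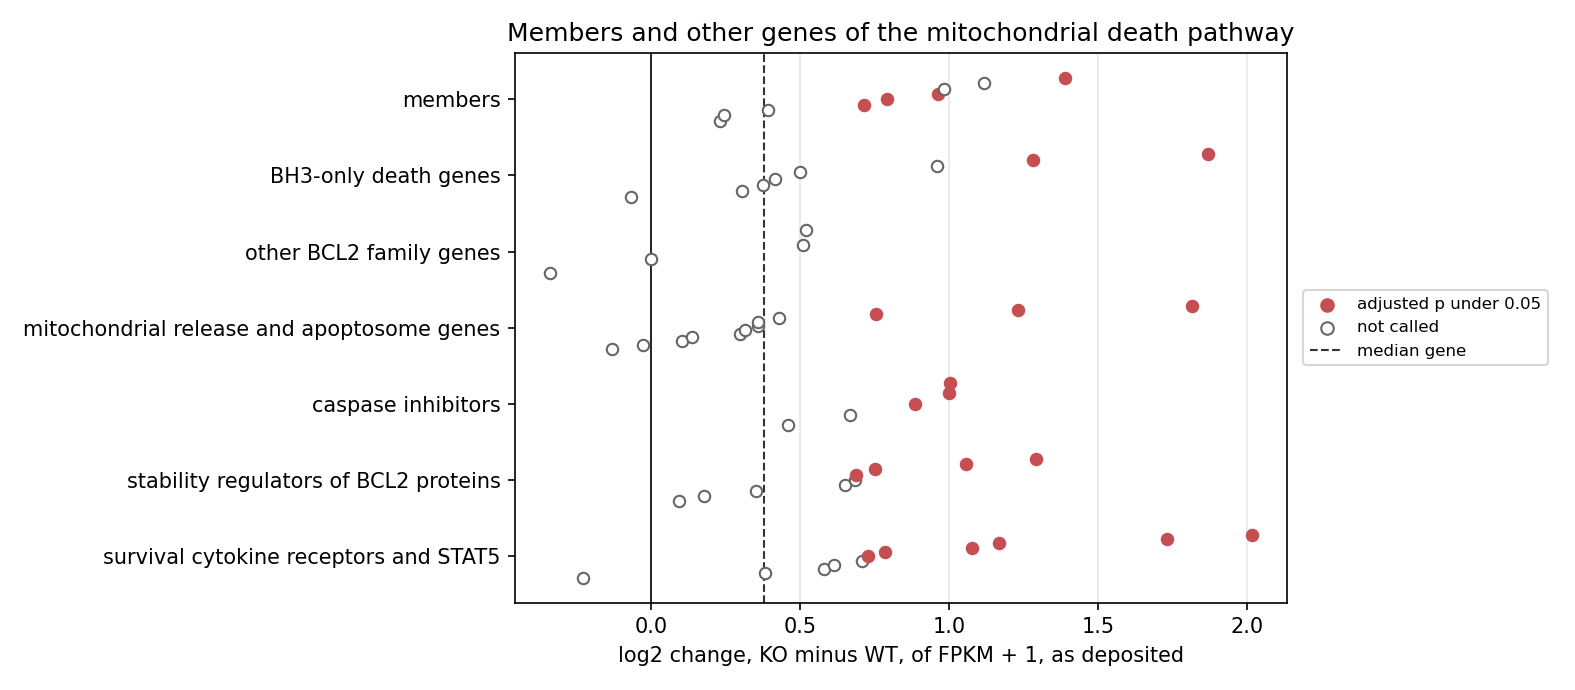
Log2 change of FPKM + 1, KO minus WT, as deposited, for the tested members and for the tested genes of 6 pathway lists, 1 point per gene; filled points had a limma adjusted p under 0.05 and the dashed line is the median gene at 0.38. Pmaip1, Il2rb and Jak3 are among the points beyond 1.5, and no gene was called lower.

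Counts of called T cell markers are to be read beside the 25.6% of all rows called higher as deposited. In bulk RNA a change in the share of a cell type and a change in RNA per cell cannot be told apart. Markers of the labelled cell type were abundant, with Cd3g at 262 to 362 FPKM and Thy1 at 162 to 281 FPKM. Of 7 such markers 3 were called higher, Cd3g and Thy1 not among them (limma adjusted p = 0.667 and 0.16). Cd4 itself, named after its values were seen, was 1 of the 3 (86.3 and 87.3 FPKM in WT, 211 and 185 FPKM in KO; limma adjusted p = 0.0173). Of 8 effector and memory markers 7 were called higher as deposited. The summed level of the 8 was 124 and 165 FPKM in WT and 408 and 454 FPKM in KO. Ccl5 and Id2 were the most abundant, and Id2 was the marker not called (limma adjusted p = 0.0927). All 6 follicular helper markers were called (sums of 11.0 and 23.1 FPKM in WT, 107 and 105 in KO), with Tnfsf8 and Cxcr5 the highest, as were 5 of 6 regulatory markers (58.6 and 99.0 FPKM in WT, 215 and 243 in KO). Ctla4 and Il2ra were the most abundant of these, and Il2ra was the member not called (35.6 and 29.4 FPKM in WT, 27.6 and 27.2 FPKM in KO). Among 8 naive markers, led by Tcf7 and Klf2, 1 was higher (Tcf7) and 1 lower (sums of 499.5 to 694.4 FPKM). Klf2 was not called (limma adjusted p = 0.807). Of 8 cell cycle markers, led by Pcna and Mcm2, 7 were higher (104 and 172 FPKM in WT, 204 and 182 FPKM in KO). Pcna held most of these sums and was the marker not called (limma adjusted p = 0.842). It was at 94.6 and 161 FPKM in WT and 122 and 141 FPKM in KO. After trimmed-mean scaling 4 markers in each of the effector and memory, follicular helper, regulatory and cell cycle lists were called higher, beside 4.38% of all rows. After quantile normalization 3, 4, 4 and 2 were, beside 1.62% of all rows. The T cell markers had 1 higher and 1 lower after trimmed-mean scaling, and the naive markers 0 higher and 1 lower. Among all rows 4.38% were then higher and 3.12% lower. The part of these states in the values of Bak1, Bcl2l1 and A1 was not tested.

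Among markers of other cells, those of red cells reached the highest levels. Of 9 erythroid markers on 11 rows 6 rows were tested and all 6 were called higher as deposited, beside 25.6% of all rows. Some of these 6 rows, very low in WT, passed the filter only through the KO libraries, where they were higher. Hba-a2 stands on 2 of the 6 rows with much the same values. With trimmed-mean scaling 2 of the 6 rows were called higher (4.38% of all rows), and with quantile normalization 1 (1.62% of all rows). The sum over the 11 rows was 6.39 and 99.4 FPKM in WT, compared with 396 and 322 FPKM in KO, nearly all of it Hba-a2 and Hbb-b2. WT 1 was the lowest library for these genes, as it was for every one of the members. Bcl2l1 is also expressed in red cell precursors, and A1 is also made by myeloid cells and neutrophils. The sum of 8 myeloid markers, led by Tyrobp and Lyz2, was 4.29 and 6.94 FPKM in WT and 8.53 and 11.2 FPKM in KO (1 of 3 tested rose, Lyz2), and that of 7 neutrophil markers, led by Csf3r and S100a9, was 23.9 and 59.2 FPKM in WT and 32.7 and 64.5 FPKM in KO (0 of 5 tested passed in limma). Lyz2 itself was at 0.164, 1.53, 2.99 and 4.38 FPKM in WT 1, WT 2, KO 1 and KO 2, and Cd14 was at 0 in 3 libraries. B cell markers summed to 20.2 to 24.2 FPKM, mostly Fcer2a and Cd79a, with 1 of 3 tested (Cd79b) called higher and Pax5 at 0 in WT 2. Plasma cell markers (Xbp1 and Igj the highest, 0 of 2 tested called) summed to 14.2 and 20.3 FPKM in WT and 25.5 and 30.8 FPKM in KO, and CD8 and NK markers (Cd8b1 and Klrd1 the highest, 0 of 2 tested called) to 13.7 to 15.7 FPKM. The part of these other cells in the members' values was not tested.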

How the data were processed

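Each of the 4 deposited tables gives gene symbols with 1 FPKM value, a unit named in the file headers. The submitters' processing notes name Bowtie 0.12.2 and mm8. No source used here states which program made the FPKM values, with which annotation or filters. Input was 200 ng of RNA for an NEBNext Ultra kit, per the labels' protocols. Rows with at least 1 FPKM in at least 2 libraries were tested with limma 3.58.1 (R 4.3.3), letting the prior variance follow mean log2(FPKM + 1), on which changes of low genes come out too small. Tests were two-sided, with Benjamini-Hochberg adjustment over all 11074 tested rows and a threshold of 0.05. The procedure was run on simulated libraries with independent noise, no shift of the median gene and no deviating library. Such a run cannot show whether calls that depend on the scaling or on 1 library hold. The members and lists were chosen with earlier results of these data known. All members were named, the pathway genes by adjusted p (up to 4 called per list, or the 2 most abundant) and the 2 most abundant markers per list; Bcl2a1c, Bcl2l11, Bbc3, Cycs, Cd4, Cd79b and Ggnbp1 were named after their values were seen. Some list genes that enter the counts are not reported here by name. Depth was read from the steps of low values and an assumed fragment length of 200 nt. Trimmed-mean scaling (30% of log ratios and 5% of levels trimmed at each side) was an own implementation. Exons of 5 of the 10 members (Bcl2, Bcl2l2, Bcl2a1b, Bax and Bak1) overlap another gene in GENCODE (GRCm38), and their values are uncertain to that extent. Results were recomputed under 12 other settings of pseudocount, filter, scaling, variance trend, block and left-out library. Sequences were compared with Biopython 1.88.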

Additional observations from a re-analysis of the deposited data

How the results depend on the processing

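With 2 libraries per group, most calls changed with the scaling or on leaving out a library. The number of members called higher, 4 in the reported analysis, was 2 with a pseudocount of 0.1 and 5 with a pseudocount of 5. It was 3 without the variance trend, 0 with no filter (5 at an unadjusted p under 0.05, limma) and 2 with a filter of 5 FPKM. Trimmed-mean scaling gave 1 and quantile normalization 0 (3 at an unadjusted p under 0.05, limma). It ran from 0 to 4 on leaving out 1 library, being 0 without WT 1 (5 at an unadjusted p under 0.05, limma) and 1 without KO 1. Among all rows 2832 were higher and 111 lower; the counts were 3 and 0 with no filter (4604 and 541 at an unadjusted p under 0.05, limma), 485 and 345 after trimmed-mean scaling, so that 58.4% of calls were higher in place of 96.2%, and 179 and 77 after quantile normalization (69.9% higher). Leaving out 1 library, with the lone library of its group assumed to vary like the other pair, gave 9 to 2173 higher and 1 to 132 lower. Values that changed sign, none of them called, were those of Bax after trimmed-mean scaling, quantile normalization and without WT 1 (-0.18, -0.046 and -0.055), of Bcl2 after the same scalings (-0.014 and -0.0015) and of Mcl1 after trimmed-mean scaling and without WT 1 (-0.20 and -0.084); on leaving out 1 library Bax and Mcl1 reached up to 0.544 and 0.545, and the cause was not tested. Bak1 stayed higher in all 12 alternatives (log2 change 0.95 to 1.65) and was called in 9, with limma adjusted p from 2.27e-05 to 0.0944. Bcl2a1b and Bcl2a1d were called in 2 and 4 of 12. The replicate numbers of the titles are not stated to mark a shared mouse or day, and deviations of same-numbered libraries correlated at 0.108; with the replicate number as a block 6 members and 3909 rows were higher and 230 lower. The depth limits Bok, which rested on about 1 to 4 fragments.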
